A study of Mus musculus with 6 samples.

Results

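The 35 genes described here encode proteins that build ribosomes, with 3 classical Myc targets that act outside the ribosome, and were taken by symbol from a fixed list. All 35 were found among the 54532 genes of the deposited tables, each as a protein-coding gene of GENCODE M21, and all 35 passed the minimum mean of 1 FPKM (fragment counts scaled by exon length and library size) that left 10843 genes for testing. The samples were 6 poly(A)-selected RNA-seq libraries of mouse bone marrow-derived macrophages immortalised with retroviruses that carry v-raf and v-myc. In 3 libraries the cells were from wild-type (WT) mice and in 3 from mice labelled as 4-1BBL knockout (4-1BBL KO, here KO-labelled), and every library came from cells given IL-4 at 10 ng/ml for 24 hours. Both groups therefore share the viral oncogenes and the cytokine, and the values are levels after IL-4. The labels state neither the animals' age or strain nor whether a genotype was immortalised more than once, nor whether replicates were separate cultures, so the p-values reflect the variation among these libraries alone, and that variation could be technical.

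Ribosomes are assembled in the nucleolus. RNA polymerase I transcribes a long precursor rRNA, small nucleolar ribonucleoproteins (snoRNPs) guide its chemical modification and cleavage, and separate sets of processing factors mature the small and the large subunit. Myc proteins, which bind DNA as partners of Max, are known as activators of many of these genes, so that the set is widely read as a measure of Myc activity in growing cells. Members of the Mxd family and Mnt also pair with Max and repress at the same sites.

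The recovered depth was 19136311 to 26389526 fragments per library, and a member had between 4355 and 141330 fragments summed over the 3 libraries of a group. All 10 macrophage markers checked were at 1 FPKM or more in every library, with a summed level of 2532 to 2586 FPKM in the WT group and 1583 to 1629 FPKM in the KO-labelled group. The markers did not move together: Adgre1 (22.7-fold, from 11.8 ± 0.625 to 268 ± 6.07 FPKM), Fcgr1 and Ptprc rose, Lyz2 (1207 ± 12.5 to 484 ± 32.8 FPKM), Cd14, Cd68 and Csf1r fell, and Itgam, Spi1 and Tyrobp did not pass. The part of these differences in the results below was not tested. Summed markers of stromal, lymphoid, granulocytic, erythroid, epithelial or endothelial cells did not exceed 1.24 FPKM in any library for any of these lists, and Col1a1, Cd3e, Ly6g, Hbb-bs and Epcam were at 0 in all 6. Tnfsf9, the gene of 4-1BBL, was at 14.6, 10.4 and 12.05 FPKM in the WT group and 10.7, 10.7 and 11.4 FPKM in the KO-labelled group (exact two-sided permutation p = 0.4, where 0.1 is the smallest possible), so its transcript does not check the label. The Y-linked genes Ddx3y and Eif2s3y had 1 and 0 fragments over the WT libraries and 3718 and 2837 over the KO-labelled ones. The groups thus also differed in Y-linked expression, which the labels do not give, and the part of this difference in the results was not tested. In these bulk libraries a change in the share of dividing cells and a change of RNA per cell cannot be told apart.

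The Myc genes themselves differed widely between the groups. Mycn was at 282.7, 283.3 and 275.2 FPKM in the WT group and at 0.0115, 0.0154 and 0.0634 FPKM in the KO-labelled group, that is 59446 against 6 fragments. Myc was at 13.8, 12.8 and 10.2 FPKM in the WT group and at 0.851, 1.55 and 0.904 FPKM in the KO-labelled group. Both were thus high in all 3 WT libraries and low in all 3 KO-labelled ones, with no overlap, and both fell in limma (Benjamini-Hochberg adjusted p = 8.65e-10 for Mycn and 8.63e-06 for Myc). The difference in Mycn was known from these same libraries beforehand, so its p-value is a description and not independent support. Mycl had 0 fragments in WT and 2 in KO-labelled libraries. The retroviral v-myc was not analysed here, and whether its fragments could be counted at Myc is not given in the sources used here.

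Partners and antagonists of Myc differed as well. Max, the shared partner, was at 38.8 ± 0.526 FPKM in the WT group and 38.2 ± 3.44 FPKM in the KO-labelled group (SD, n = 3), with overlapping values and an adjusted p of 0.748 in limma. Mxd1 rose 8.64-fold, from 0.636 ± 0.154 to 5.499 ± 0.707 FPKM, and Mxd4 rose 6.36-fold, from 1.022 ± 0.216 to 6.50 ± 0.680 FPKM. Mnt rose 1.43-fold to 13.2 ± 1.11 FPKM, Mxi1 1.33-fold to 20.2 ± 2.04 FPKM and Mga 1.66-fold to 6.10 ± 0.179 FPKM. Mxd3 fell from 1.52 ± 0.155 to 0.776 ± 0.135 FPKM. Of the related Mlx branch, Mlx fell from 30.1 ± 2.07 to 21.5 ± 0.870 FPKM and Mlxip rose from 6.97 ± 0.434 to 11.5 ± 0.384 FPKM. Basp1, whose product is known to repress Myc-driven transcription, was at 0, 0.312 and 0.0224 FPKM in the WT group and at 90.6, 90.8 and 80.5 FPKM in the KO-labelled group.

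**Figure D1:**
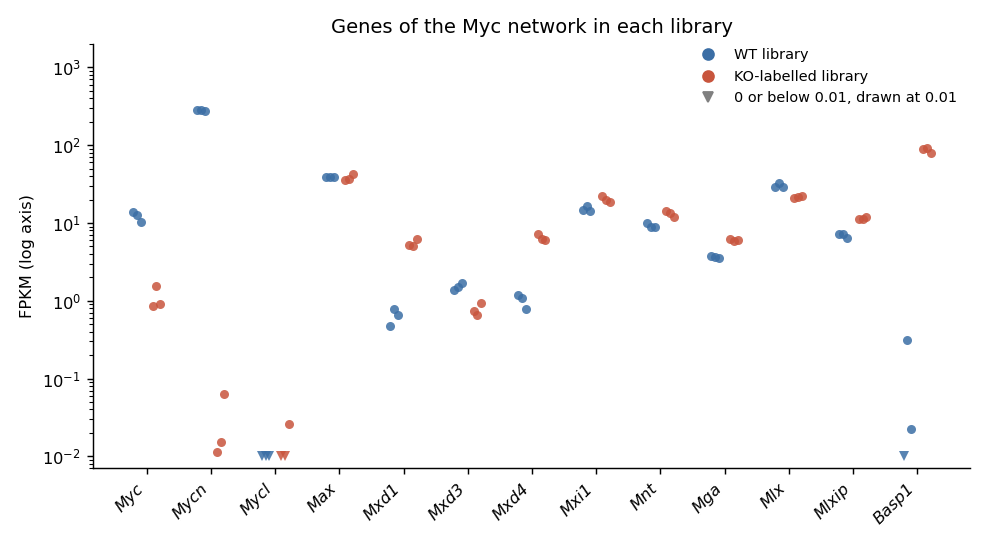
FPKM on a log axis for 13 genes of the Myc network, with 1 point per library (3 WT, 3 KO-labelled) and triangles for values of 0 or below 0.01. Mycn and Myc are high in the WT libraries, Mxd1, Mxd4 and Basp1 in the KO-labelled ones, and the points of Max overlap.

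Against these differences, the ribosome biogenesis genes stayed close to their WT levels in FPKM. This unit is relative to library size, so a change in total RNA per cell would not show. The FPKM of all genes added up to 306046 to 312801 in WT libraries and 286101 to 295164 in KO-labelled libraries. The FPKM of the 35 genes added up to 3218, 3244 and 3302 in WT and to 3186, 3210.0 and 3214 in KO-labelled libraries, a ratio of 0.984 between the group means. Without Cad, Hspd1 and Hspe1, which act outside the ribosome, the other 32 genes added up to 2654 ± 27.1 FPKM and 2496 ± 18.7 FPKM (SD, n = 3), a ratio of 0.941. Npm1 weighs most in these sums, at 824 FPKM in the WT group and 691 FPKM in the KO-labelled group, and its value is uncertain, as described below. Each gene was within 1.25-fold of its WT mean in 28 of 35 cases, and Polr1b alone was past 1.5-fold. The median log2 fold change (KO-labelled minus WT, on log2(FPKM + 1), as all log2 values below) was 0.03, beside 0.01 over all tested genes.

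In limma with Benjamini-Hochberg adjustment 10 of the 35 genes rose, 10 fell and 15 did not pass 0.05, so that 57.1% were called beside 60.8% of all tested genes, 30.6% of all tested genes being higher and 30.2% lower. Where the mean reached 10 FPKM the shares of tested genes were 65.5% in all, 32.1% higher and 33.3% lower. The called share is close to this background. After rescaling to TPM 14 genes were higher and 5 lower (40.0% and 14.3%), beside 36.6% and 24.4% of all tested genes. Under quantile normalization 16 were higher and 6 lower (45.7% and 17.1%), beside 29.9% and 31.1% of all tested genes, so there the balance of the 35 genes moved away from the background. Without WT replicate 2 the split was 10 higher and 5 lower (28.6% and 14.3%), beside 27.5% and 26.4%. The groups did not overlap for 22 of 35 genes (62.9%), beside 67.4% of tested genes and 71.6% of those with at least 10 FPKM. The counts for smaller groups of genes below are to be read beside these shares of called and non-overlapping genes. The sizes were small. A called change that reached 1.5-fold on this log2 scale was found for 1 of 35 genes, beside 26.3% of all tested genes and 22.6% of those whose mean reached 10 FPKM, a level that all 35 genes reached. The median size of the log2 fold change, without sign, was 0.17 over the 35 genes, 0.32 over all tested genes and 0.28 over the 4937 with at least 10 FPKM, and 28 of the 35 genes lay below the median of all tested genes. For the 15 genes that did not pass, no 95% interval reached farther from 0 than 0.32 (Rrp9), a 1.25-fold change.

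**Figure D2:**
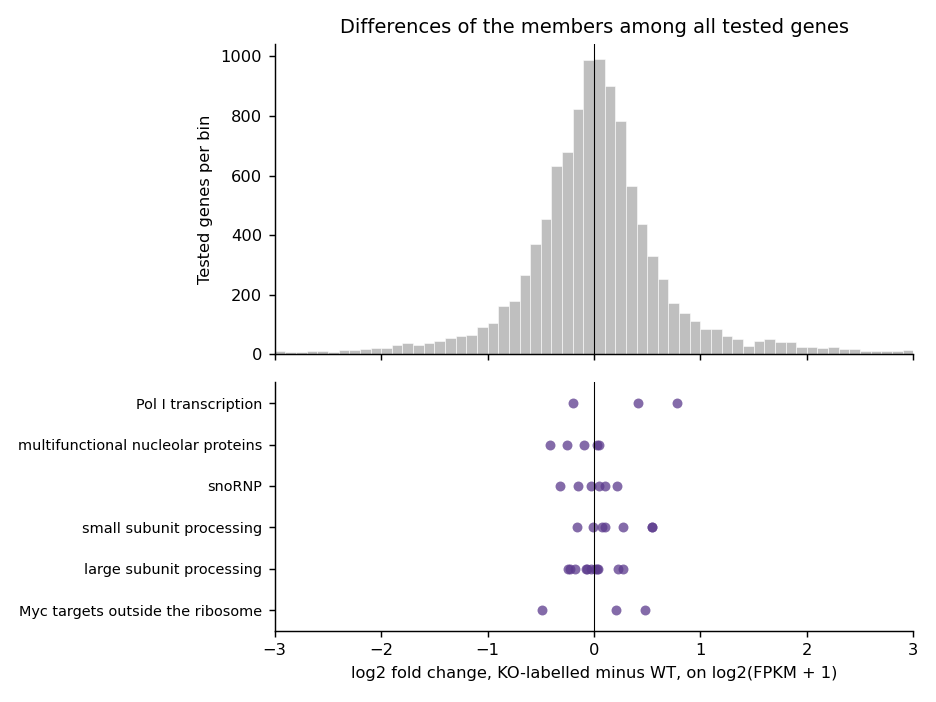
Histogram of the log2 fold change (KO-labelled minus WT, on log2(FPKM + 1), in bins of 0.1) of the 10843 tested genes above the values of the 35 ribosome biogenesis genes and Myc targets by role, 1 point per gene. The 35 points lie between -0.49 (Cad) and 0.78 (Polr1b), and 210 tested genes lie beyond the axis.

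Promoter sequences are shown because Myc-Max dimers are known to bind the E-box CACGTG, which reads the same on both strands. RefSeq promoters (GRCm38.p6, from 250 bases before to 50 after an annotated start) were matched for 30 of the 35 genes; Npm1, Fbl, Rrp12, Bop1 and Rrs1 were not in the table. CACGTG was present for 7 of 30 genes (23.3%), beside 8.09% of the 27025 genes and 7.15% of the 32851 promoters of the table. The related CACGCG, searched on both strands, was present for 12 of 30 (40.0%), beside 10.5% of genes and 9.27% of promoters, and 3 of the genes held both: Mybbp1a and Pes1 within 1 promoter, and Hspd1 in separate promoters of its 2 annotated starts. The background shares cover all genes of the table, expressed here or not, and were not matched for base composition. The list itself was drawn up as ribosome biogenesis genes driven by Myc. An excess over the background shares was not tested. The stretches around CACGTG are printed 5′ to 3′ on the strand of the gene, with the E-box in capitals and up to 12 bases on each side.
Hspd1 (chr1:55088306-55088335, minus strand): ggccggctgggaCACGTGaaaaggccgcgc
Mybbp1a (chr11:72441355-72441376, plus strand): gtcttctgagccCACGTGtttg
Nop2 (chr6:125131811-125131840, plus strand): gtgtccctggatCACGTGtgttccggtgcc
Pes1 (chr11:3963965-3963994, plus strand): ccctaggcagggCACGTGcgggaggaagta
Tsr1 (chr11:74898092-74898121, plus strand): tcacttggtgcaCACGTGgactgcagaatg
Utp20 (chr10:88826765-88826789, minus strand): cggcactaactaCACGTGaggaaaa
Wdr43 (chr17:71616220-71616249, plus strand): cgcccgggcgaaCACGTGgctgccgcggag
In Nop2 and Hspd1 the E-box began 60 and 80 bases before the start, and in the other 5 genes at positions 3 to 41, with the start base counted as 1. Of these 7 genes Hspd1 rose, Utp20 fell and 5 did not pass, and of the 12 with CACGCG 4 rose, 3 fell and 5 did not pass. Among all tested genes 30.6% were higher and 30.2% lower. Hspd1 and Hspe1, both among the 4 with CACGCG that rose, have overlapping promoters and may share 1 site. A match describes letters and not binding, and introns, where Myc sites of such genes can also lie, were not searched.

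The 3 genes of polymerase I transcription were all called, 2 higher and 1 lower, where 60.8% of all tested genes were called. Their summed level was 66.0 ± 0.576 FPKM in the WT group and 88.1 ± 0.845 FPKM in the KO-labelled group (SD, n = 3). Polr1b, a large catalytic subunit of RNA polymerase I, was at 14.6, 14.9 and 14.1 FPKM in the WT group and 25.7, 25.5 and 25.8 FPKM in the KO-labelled group, and rose 1.77-fold (log2 0.78 ± 0.04 SE, adjusted p = 7.04e-06). Ubtf, the factor that binds rDNA and recruits the polymerase, was at 37.3, 37.9 and 38.2 FPKM in the WT group and 52.1, 49.7 and 49.9 FPKM in the KO-labelled group, and rose 1.34-fold (adjusted p = 0.000121). Polr1a, the largest subunit, was at 13.9, 13.9 and 13.3 FPKM in the WT group and 11.2, 12.2 and 12.2 FPKM in the KO-labelled group, a ratio of 0.866 (log2 -0.19 ± 0.05, adjusted p = 0.0167). Polr1a and Polr1b, parts of the same enzyme, stood at similar FPKM in the WT group and at 11.8 and 25.7 FPKM in the KO-labelled group. A comparison between these genes depends on their annotated exon lengths, 11871 bases for Polr1a and 5805 for Polr1b. The groups did not overlap for any of the 3 genes, although the call of Polr1a was lost without WT replicate 1 or 2 and after rescaling to TPM (adjusted p = 0.166).

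Of the 5 multifunctional nucleolar proteins 2 fell and 3 did not pass, and their summed level was 1338 ± 17.1 FPKM in the WT group and 1172 ± 33.3 FPKM in the KO-labelled group (SD, n = 3). Ddx21, an RNA helicase that acts in rRNA transcription and processing, was at 110.7, 107.4 and 112.3 FPKM in the WT group and 78.6, 84.7 and 84.9 FPKM in the KO-labelled group, a fall to 0.751 of WT (log2 -0.41 ± 0.05, adjusted p = 0.000242). Npm1, the nucleolar chaperone nucleophosmin and the most highly expressed of the 35 genes, was at 814, 820.1 and 837 FPKM in the WT group and 673, 720.1 and 680.3 FPKM in the KO-labelled group (ratio 0.839, adjusted p = 0.00151). Its value is uncertain because 4 processed pseudogenes with near-identical sequence were themselves counted, among them Gm14681 at 139 and 83.7 FPKM and Gm9118 at 65.1 and 91.4 FPKM in the WT group and KO-labelled libraries, and under quantile normalization its log2 fold change was 0.013. Ncl, nucleolin, was at 192 to 196 FPKM in the WT group and 179 to 185 FPKM in the KO-labelled group, without overlap, and narrowly missed the threshold (log2 -0.09 ± 0.04, adjusted p = 0.0523). It is a small difference that depended on the scaling, with 0.12 and an adjusted p of 0.0247 under quantile normalization. Nolc1, a chaperone of snoRNPs, was at 88.4 ± 0.325 and 90.5 ± 4.23 FPKM, and Mybbp1a, a regulator of polymerase I and processing factor, at 122.0 ± 2.04 and 126 ± 2.47 FPKM (SD, n = 3), and neither passed, although both were called higher with TPM and with quantile normalization.

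Of the 6 core snoRNP genes 1 rose, 2 fell and 3 did not pass. In the box C/D particles, which methylate rRNA, the scaffold genes Nop56 (86.7 ± 2.67 and 85.2 ± 2.00 FPKM) and Nop58 (24.9 ± 0.563 and 25.8 ± 1.29 FPKM) overlapped between the groups, with 95% intervals of the log2 fold change from -0.12 to 0.07 and from -0.07 to 0.17. Fbl, the methyltransferase, was at 58.6, 58.1 and 56.2 FPKM in the WT group and 53.5, 53.4 and 48.5 FPKM in the KO-labelled group, a ratio of 0.898 (adjusted p = 0.0358) that lost its call in 7 of 13 alternatives. Rrp9, a protein of the U3 particle that cleaves the precursor, was at 25.6 ± 1.78 and 27.5 ± 3.24 FPKM, short of the threshold except without KO replicate 3 (adjusted p = 0.0476). In the H/ACA particles, which convert uridine to pseudouridine, the 2 members moved apart. Dkc1, the pseudouridine synthase, rose from 38.5, 40.9 and 39.1 FPKM in WT to 44.3, 46.6 and 47.0 FPKM (1.16-fold, adjusted p = 0.00576). Nhp2 fell from 188, 205 and 189 FPKM to 176, 153 and 139 FPKM (ratio 0.805, adjusted p = 0.0174), with the widest spread among KO-labelled libraries of the 6 genes, and its call was lost without WT replicate 2, without KO replicate 2 and under quantile normalization.

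Of the 7 small subunit processing genes 3 rose, 1 fell and 3 did not pass, and their summed level was 215 ± 5.13 FPKM in the WT group and 257 ± 4.47 FPKM in the KO-labelled group (SD, n = 3). Noc4l, a nucleolar factor of small subunit maturation, was at 34.0, 34.9 and 34.7 FPKM in the WT group and 51.8, 50.6 and 50.4 FPKM in the KO-labelled group, and rose 1.47-fold (log2 0.55 ± 0.04, adjusted p = 2.26e-05). Rcl1, a protein of the U3 processome, was at 36.4, 31.2 and 39.6 FPKM in the WT group and 50.2, 49.0 and 57.9 FPKM in the KO-labelled group, and rose 1.47-fold with more spread (log2 0.54 ± 0.10, adjusted p = 0.00293). Heatr1, which links polymerase I transcription to processing, rose from 24.9, 24.0 and 24.6 FPKM to 29.1, 29.9 and 30.4 FPKM (1.22-fold, adjusted p = 0.00118). All 3 were higher in every KO-labelled library than in any WT library. Wdr43, which belongs to the same early complex as Heatr1, was at 61.2 ± 2.53 and 64.7 ± 2.98 FPKM, and Rrp12, an export factor, at 19.2 ± 1.03 and 19.1 ± 1.94 FPKM, and neither passed. Wdr43 was called higher with TPM and with quantile normalization. Tsr1, a late maturation factor, stood at 22.8 ± 0.684 and 24.6 ± 1.58 FPKM without passing, was called higher with TPM, and 32.3% of its exon length overlaps the antisense gene Srr. Utp20, a large scaffold protein, was at 16.6, 16.9 and 17.1 FPKM in the WT group and 14.4, 15.8 and 14.95 FPKM in the KO-labelled group (ratio 0.892, adjusted p = 0.0312), and lost its call in 7 of 13 alternatives, 5 of which left out 1 library.

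Among the 11 large subunit factors 2 rose, 3 fell and 6 did not pass, with log2 fold changes from -0.24 to 0.27. The 3 proteins of the PeBoW complex, which is required for cleavage of the large subunit precursor and is known as a Myc-responsive unit, did not pass. Bop1 was at 72.6, 76.2 and 74.2 FPKM in the WT group and 74.0, 73.6 and 76.7 FPKM in the KO-labelled group, with a 95% interval of the log2 fold change from -0.09 to 0.10. Pes1 was at 70.4, 72.7 and 76.3 FPKM and 78.1, 72.3 and 73.4 FPKM, and its interval ran from -0.09 to 0.15. Wdr12 was at 11.3, 11.8 and 10.6 FPKM and 10.9, 11.0 and 12.7 FPKM, with an interval from -0.14 to 0.21. The values of all 3 genes overlapped between the groups, although under quantile normalization Bop1 (log2 0.13, adjusted p = 0.0233) and Pes1 (log2 0.14, adjusted p = 0.0369) were called higher.

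The increases among the large subunit factors were those of Nip7, a precursor-binding factor, from 24.2, 24.8 and 25.4 FPKM to 31.7, 28.4 and 30.4 FPKM (1.22-fold, adjusted p = 0.00387), and of Ftsj3, an rRNA methyltransferase, from 41.2 ± 2.37 to 48.3 ± 1.99 FPKM (1.17-fold, adjusted p = 0.0117). Noc2l, an assembly factor that partners other Noc proteins, fell from 94.5, 94.9 and 96.5 FPKM to 84.3, 77.5 and 81.7 FPKM (ratio 0.852, adjusted p = 0.00325). Gnl3, the nucleolar GTP-binding protein nucleostemin, fell from 35.2 ± 1.45 to 29.6 ± 1.65 FPKM (adjusted p = 0.00860), a call lost after rescaling to TPM (adjusted p = 0.0684). Rrs1, which helps to incorporate the 5S particle, fell from 74.6 ± 1.44 to 66.1 ± 3.68 FPKM (adjusted p = 0.0213), a call lost in 5 of 13 alternatives. Nop2, an rRNA methyltransferase, Nop16 and Ppan were at 81.3 ± 1.62, 62.3 ± 2.42 and 32.8 ± 1.17 FPKM in the WT group and at 79.7 ± 4.44, 59.3 ± 5.10 and 31.4 ± 1.82 FPKM in the KO-labelled group, with overlapping values.

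The 3 Myc targets outside the ribosome were all called, where 60.8% of all tested genes were called. Cad, the enzyme that opens pyrimidine synthesis, was at 46.7, 48.1 and 46.7 FPKM in the WT group and 34.5, 33.0 and 32.5 FPKM in the KO-labelled group, the largest fall among the 35 genes (ratio 0.708, log2 -0.49 ± 0.04, adjusted p = 6.77e-05). Hspd1 and Hspe1, which encode the large and small proteins of the mitochondrial chaperonin, rose together. Hspd1 was at 407, 405 and 428 FPKM in the WT group and 467, 485 and 478 FPKM in the KO-labelled group (1.15-fold, adjusted p = 0.00333). Hspe1 was at 137.5, 137.4 and 147.0 FPKM in the WT group and 177, 186 and 229 FPKM in the KO-labelled group (1.40-fold, adjusted p = 0.00416), with KO replicate 3 well above the others. The groups did not overlap for either gene.

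Hspd1 and Hspe1 lie head to head on chromosome 1, so their shared upstream stretch is shown. By RefSeq (GRCm38.p6) it covers the 215 bases between the start of Hspd1 on the minus strand and that of Hspe1 on the plus strand, chr1:55087933-55088147, here 5′ to 3′ on the plus strand.
Hspe1 and Hspd1: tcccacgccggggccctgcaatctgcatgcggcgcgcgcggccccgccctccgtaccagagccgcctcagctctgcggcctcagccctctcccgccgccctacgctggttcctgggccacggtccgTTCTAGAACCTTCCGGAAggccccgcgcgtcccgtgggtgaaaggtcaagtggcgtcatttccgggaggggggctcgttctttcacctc
The capitals, which begin 89 bases before the start of Hspe1, mark overlapping copies of TTCNNGAA (2 copies, present in 8.52% of all 32851 promoters) and GAANNTTC (1 copy, in 7.86%), each the same on both strands and together the pattern of a heat shock element. These motifs were chosen for display after the values of the genes were known, and neither CACGTG nor CACGCG occurs in the stretch. The promoters of Hspe1 and of this start of Hspd1, which overlap and reach past the stretch, each hold 1 CACGCG, which may be the same site. A further annotated start of Hspd1 lies within Hspe1, and 4.24% of the exon length of Hspd1 and 7.6% of that of Hspe1 overlap each other on opposite strands, so some fragments of the pair may have been assigned to the wrong gene.

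**Figure D3:**
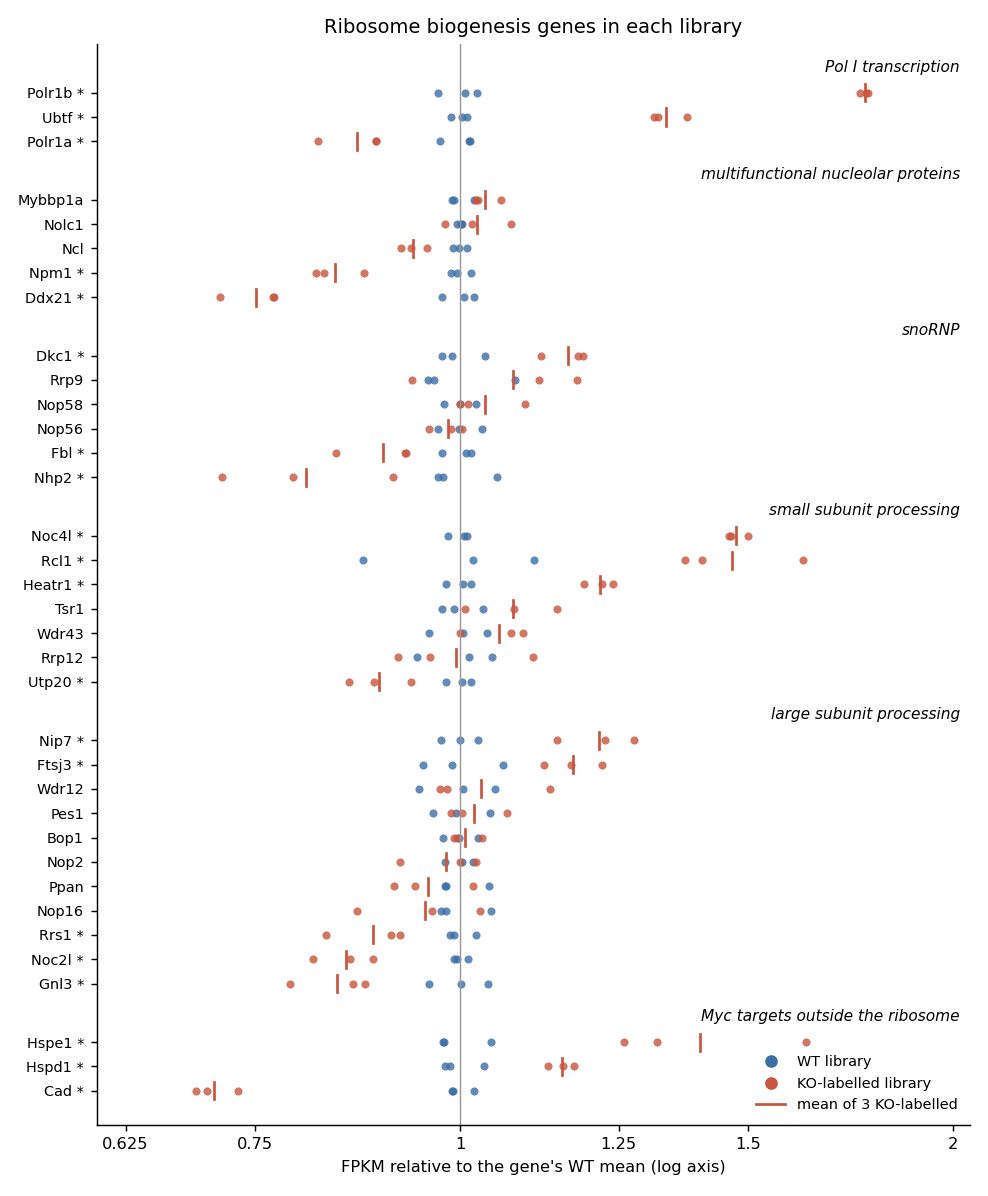
FPKM of each gene in each library divided by the mean of the gene's 3 WT libraries, on a log axis, by role, with a bar at the mean of the 3 KO-labelled libraries and an asterisk at genes with an adjusted p below 0.05. The KO-labelled points of Polr1b lie near 1.77, those of Noc4l near 1.47 and those of Cad near 0.708, and the points of Bop1, Pes1, Wdr12, Nop56 and Nop58 overlap with WT.

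Some properties that the list did not use are shared by several of these genes. Small nucleolar RNA genes lie within the bounds and on the strand of 8 members (Ncl, Nop56, Nop58, Dkc1, Wdr43, Tsr1, Gnl3 and Ppan), 23 such genes in all, for example Snord57 and Snord110 in Nop56 and Snord11 and Snord70 in Nop58. These RNAs are cut from introns and have no poly(A) tail, so the libraries do not measure them. Of the 8 host genes Dkc1 rose, Gnl3 fell and 6 did not pass, and of the 27 others 9 rose, 9 fell and 9 did not pass, a difference that was not tested. Over all tested genes 30.6% were higher and 30.2% lower. Near-identical matches in other genes, mostly processed pseudogenes, were found for 9 members. For 5 of these (Npm1, Fbl, Nop56, Wdr12 and Hspd1) a matching gene reached 1 FPKM. Not every match need be a copy of the member. The only match of Nip7 was 162 bases of the antisense gene Gm47551, which also matched Wdr12. For Fbl the matching gene at 1 FPKM or more was the protein-coding Tulp4, at 8.55 FPKM in the WT group and 3.32 FPKM in the KO-labelled group. Among the 26 members without such a match 7 rose, 7 fell and 12 did not pass, so 26.9% were called in each direction.

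The wider pathway was also described. Of 173 tested genes in 6 further lists, 55 rose, 45 fell and 73 did not pass, 57.8% called beside 60.8% of all tested genes, and 7.51% passed 1.5-fold beside 26.3%. These shares pool genes of ribosome synthesis with a list of other Myc targets. Of the 36 genes tested in that list 14 rose, 15 fell and only 7 did not pass, and 2 increases and 5 decreases reached 1.5-fold. The list medians lay between -0.06 (snoRNP) and 0.15 (rRNA exosome). After rescaling to TPM 78 rose and 28 fell (45.1% and 16.2%), beside 36.6% and 24.4% of all tested genes.

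Among 18 further genes of polymerase I transcription 4 rose, 4 fell and 10 did not pass, with 2 higher without WT replicate 1, KO replicate 1 or KO replicate 2. Polr1d, a subunit shared by polymerases I and III, rose 1.80-fold from 26.5 ± 1.89 to 47.6 ± 2.69 FPKM (adjusted p = 5.05e-05). Its value is uncertain, because the processed pseudogene Gm12751 has 100% identity to it over 381 bases. Gm12751 went the other way, from 182 FPKM in the WT group to 44.0 FPKM in the KO-labelled group. Ttf1, the termination factor, rose from 3.04 ± 0.184 to 3.93 ± 0.239 FPKM. Taf1b of the promoter selectivity complex fell from 13.8 ± 0.560 to 9.08 ± 0.316 FPKM and the subunit gene Polr1f from 17.2 ± 0.835 to 12.5 ± 0.761 FPKM. Rrn3, which carries the polymerase to the promoter, was at 23.7 ± 0.187 and 26.2 ± 1.54 FPKM, short of the threshold (adjusted p = 0.0570). Polr1b thus rose while Polr1a and Polr1f fell, and whether Polr1d rose with Polr1b is uncertain because of its copy.

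Of 11 further snoRNP genes 2 rose, 2 fell and 7 did not pass. There was 1 higher when any library but KO replicate 3 was left out, and 1 lower without WT replicate 1, WT replicate 3 or KO replicate 2. Nop10, an H/ACA core protein, rose from 75.4 ± 0.755 to 96.5 ± 13.8 FPKM and the assembly factor gene Nufip1 from 9.23 ± 0.360 to 12.2 ± 1.00 FPKM, while the assembly ATPase genes Ruvbl1 (66.0 ± 3.10 to 55.6 ± 1.49 FPKM) and Ruvbl2 (84.6 ± 2.11 to 76.7 ± 1.57 FPKM) fell. Of 43 further small subunit factors 11 rose, 10 fell and 22 did not pass. Nol6 rose 1.51-fold to 31.0 ± 1.78 FPKM and the kinase gene Riok2 1.37-fold to 15.2 ± 1.43 FPKM, whereas Wdr3 fell from 35.8 ± 1.32 to 23.3 ± 0.340 FPKM and Rrp36 from 10.9 ± 0.379 to 7.22 ± 1.14 FPKM.

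Of 52 further large subunit factors 18 rose, 13 fell and 21 did not pass. The export adaptor gene Nmd3 rose 1.67-fold to 12.3 ± 1.15 FPKM and the helicase gene Ddx51 1.58-fold to 16.3 ± 0.475 FPKM, while Rbm28 fell from 19.5 ± 0.955 to 10.4 ± 0.501 FPKM and Rrp15 from 27.5 ± 1.18 to 18.5 ± 2.07 FPKM. Among 13 genes of the exosome, the nuclease that trims rRNA ends, 6 rose, 1 fell and 6 did not pass, with 3 higher without WT replicate 1, WT replicate 2 or KO replicate 3. Exosc1 rose from 24.0 ± 1.05 to 36.2 ± 1.34 FPKM and the helicase gene Mtrex from 17.7 ± 0.479 to 23.1 ± 0.961 FPKM, and Exosc9 fell from 7.83 ± 0.392 to 3.82 ± 0.30 FPKM.

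A last list held 37 other known Myc targets. Ccnd2 was not tested because its mean was below 1 FPKM. It was at 0.831, 1.07 and 0.979 FPKM in the WT group and 0.00403, 0.0378 and 0.0222 FPKM in the KO-labelled group, 581 against 12 fragments, without overlap. Among the 36 that were tested 14 rose and 15 fell while 7 did not pass, and 2 of the increases and 5 of the decreases reached 1.5-fold. Over all tested genes 30.6% were higher and 30.2% lower, and 13.4% and 12.9% were so by at least 1.5-fold. Odc1, the rate-limiting enzyme of polyamine synthesis, fell from 271 ± 6.95 to 141 ± 6.85 FPKM (log2 -0.93, adjusted p = 4.32e-06), but has 4 near-identical copies, and the mitochondrial serine hydroxymethyltransferase gene Shmt2 fell from 204 ± 7.51 to 122 ± 1.72 FPKM. Nampt, of NAD synthesis, rose from 50.7 ± 1.68 to 80.3 ± 2.71 FPKM and the transferrin receptor gene Tfrc from 111 ± 2.87 to 167 ± 5.09 FPKM. For each of these 4 genes the adjusted p in limma was 2.40e-05 or lower, and the groups did not overlap.

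**Figure D4:**
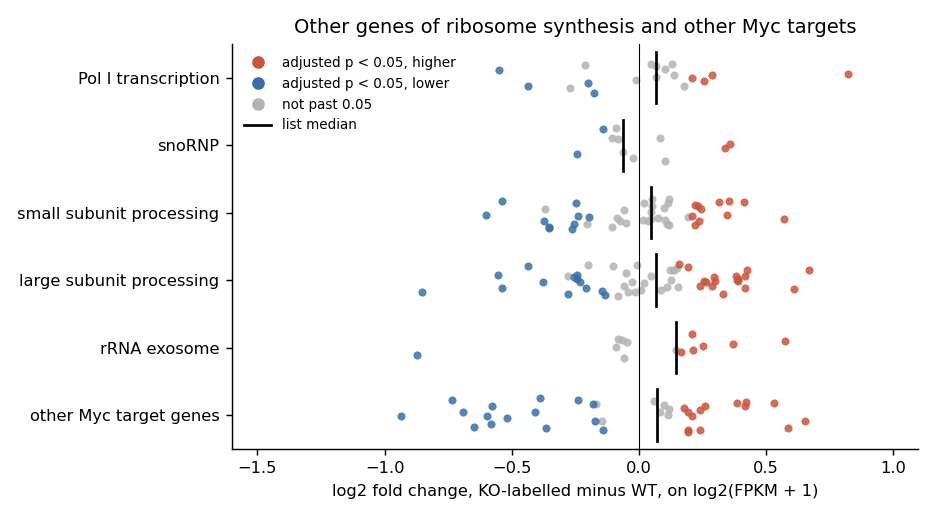
Log2 fold change (KO-labelled minus WT, on log2(FPKM + 1)) of the tested genes of 6 further lists, 1 point per gene, coloured by whether the adjusted p was below 0.05, with a black bar at the list median and vertical scatter only to separate points. The medians lie between -0.06 and 0.15, and the points of other Myc target genes spread from -0.93 (Odc1) to 0.65 (Nampt).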

How the data were processed

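The authors deposited 1 table of FPKM per library, with 54532 Ensembl genes each. Tools and build named in the submitters' processing notes are HISAT2 (2.0.5), featureCounts (1.5.0-p3) and mm10. For the annotation, the strand setting and multiply mapped reads the answer is not given in the sources used here. Symbols, positions and exon lengths came from GENCODE M21 (54495 identifiers matched). FPKM multiplied by exon length stepped in whole fragments (97.9% to 98.0% of values up to 200 within 0.1, against 20% by chance), which gave the depths. The 10843 genes whose mean reached 1 FPKM entered limma 3.58.1 (R 4.3.3), fitted to log2(FPKM + 1) with its trend option, with the KO-labelled group compared against WT. The threshold was 0.05 after Benjamini-Hochberg adjustment over all of them, and this fit was checked on simulated data. The pass condition concerned 2-fold changes, larger than that of any of the 35 members, and says nothing of smaller changes. Every adjusted p quoted is from this fit unless an alternative is named, and folds and ratios of single genes are ratios of mean FPKM. Folds on the log2(FPKM + 1) scale understate the change of weakly expressed genes. Copies were found with BLAST+ 2.17.0+ (at least 95% identity over 80% of the shorter transcript and 150 bases). All 35 members and the Myc network genes are named, and in each further list the 2 largest increases and decreases past the threshold; other genes named were chosen after their values were seen. The members and lists were chosen with earlier results of these data known. The alternatives changed the pseudocount, filter, scaling, test or block, or left out 1 library.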

Additional observations from a re-analysis of the deposited data

How the results depend on the processing

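Of the 20 called members 13 kept direction and call in all 13 alternatives run for single genes (Polr1b, Ubtf, Ddx21, Dkc1, Heatr1, Noc4l, Rcl1, Noc2l, Nip7, Ftsj3, Cad, Hspd1 and Hspe1), and of the 15 others 7 were not called in any. Scaling moved the balance most. Quantile normalization gave 16 members higher and 6 lower with a median log2 fold change of 0.10, beside -0.0092 over all tested genes, and turned Ncl to 0.12 and Npm1 to 0.013. Rescaling to TPM gave 5 members lower with a median of 0.12, beside 0.10 over all tested genes, and 28 lower genes in the pathway lists, and voom on the recovered fragments gave a median of 0.0596. Leaving out 1 library gave 10 to 11 members higher and 5 to 9 lower, the lowest without WT replicate 2, with medians from 0.0079 to 0.0271. No sign was found that the replicate numbers pair the samples: deviations of same-numbered libraries correlated at -0.034, 0.047 and -0.032, and not every library correlated best with its own number. With 3 libraries per group this check cannot exclude a shared culture or batch. With the number as a block (replicate block) 10 members were higher and 9 lower, and 3119 and 3075 of all tested genes. Each member had at least 4355 fragments in a group, and there were 3 libraries per group.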

Other observations

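Mitochondrial chaperone genes did not move as a unit. Hspa9, which encodes the mitochondrial partner chaperone that passes imported proteins to the chaperonin, fell from 269 ± 2.20 FPKM (SD, n = 3) in the WT group to 177 ± 6.31 FPKM in the KO-labelled group (adjusted p = 1.73e-05 in limma), while Hspd1 and Hspe1 rose, and Trap1 was at 94.96 ± 4.22 and 103 ± 3.73 FPKM, short of the threshold (adjusted p = 0.0762).

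Genes of nucleotide and folate metabolism among the other Myc targets moved in both directions. Ctps, of CTP synthesis, fell from 48.3 ± 0.938 to 32.0 ± 1.497 FPKM, as Cad did, whereas Umps, which completes UMP, rose from 27.4 ± 1.099 to 31.5 ± 1.022 FPKM. Of the 7 purine synthesis genes in the list, Gart, Ppat, Atic (29.6 ± 0.589 to 39.8 ± 0.305 FPKM), Gmps and Impdh2 (85.7 ± 1.08 to 101 ± 3.40 FPKM, with 1 near-identical copy) rose, Pfas fell from 23.1 ± 0.0956 to 17.5 ± 1.15 FPKM, and Paics was at 152 ± 3.20 and 163 ± 8.16 FPKM (adjusted p = 0.109 in limma). The mitochondrial folate genes Shmt2 and Mthfd2 fell (Mthfd2 from 76.9 ± 1.501 to 48.8 ± 3.13 FPKM), as did the cytosolic Mthfd1 (57.0 ± 1.80 to 34.9 ± 1.00 FPKM), and the cytosolic Shmt1 rose from 14.4 ± 1.68 to 19.6 ± 2.17 FPKM. Apart from Cad, Hspd1, Hspe1 and Shmt2, these genes were picked out with their values in view.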
